A study of Mus musculus with 2 samples.

Results

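Paqr8, Igfbp5 and Chst2 are 3 of the 26 genes with at least 20 C-to-U sites in a list of 17755 sites in 6929 genes from mouse cortical nuclei. The 3 genes held 74 of these sites, 28 in Paqr8, 24 in Igfbp5 and 22 in Chst2. They were selected by their number of sites and by how densely these lie towards the 3′ end of the gene. The counts, positions and spacing given here therefore describe them and were not tested. In Chst2 only 9.09% of the sites were in the last 2 kb, and their median distance to the 3′ end was 2852.5 bases. Genes with at least 20 sites made up 0.375% of the genes in the list. Agpat3, Dag1, Nfasc, Ptprz1 and Slc1a4 stood just inside that minimum with 20 sites each, and Apc, Fam171b, Fat1, Rgs5, Tcf4 and Zfp644 just outside it with 19 each.

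The 2 libraries formed 1 group of nuclei from mouse cortex, fixed in 50% ethanol, stained with an antibody to the neuronal protein NeuN and sorted by flow. Both came from mice of the genotype APOBEC1-YTH that were given tamoxifen at 20 mg/kg every 24 hours for 5 days from 10 weeks of age, with tissue taken 7 days after the last dose. APOBEC1-YTH joins a cytidine deaminase to the YTH domain, which binds N6-methyladenosine (m6A), so that cytidines near a modified adenosine are converted to uridine and read as C-to-T changes. The promoter and cell type that drive the transgene, and whether each library came from 1 animal, are not stated in the labels, and animals without the editor were not analysed here. The table gives 1 editing level per site for both libraries together, with 0 columns of coverage and 0 of values per library. Depth is therefore unknown, no value has a replicate error, every SD is a spread across sites, and no test was run.

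The sorted population was checked against marker genes, where a site needs both RNA and editing. As background, 28.3% of RefSeq protein-coding genes were listed with 1 site or more. Of 10 neuron markers 4 had a site, and Rbfox3, the gene of NeuN itself, had 0. Sites were listed for 8 of 10 astrocyte, 9 of 10 oligodendrocyte, 5 of 5 precursor, 4 of 8 microglia and 7 of 8 endothelial and mural markers. The 10 neuron markers held 11 sites in all and the 10 astrocyte markers 158. The part of RNA from other cells in the sites of Paqr8, Igfbp5 and Chst2 was not tested.

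m6A is placed on nascent transcripts in the nucleus by a methyltransferase complex around METTL3 and METTL14, and in mammals it is known to lie mostly around stop codons and in 3′ untranslated regions of messenger RNA. The proteins of the 3 genes act in different places. Paqr8 encodes a membrane progesterone receptor of the progestin and adipoQ receptor (PAQR) family, through which steroids act on cells without the nuclear receptor. Igfbp5 encodes a secreted protein that binds insulin-like growth factors and sets how much of them reaches their receptor. Chst2 encodes an enzyme of the Golgi that transfers sulfate to N-acetylglucosamine in sugar chains, among them keratan sulfate.

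Paqr8 lies on the plus strand of mouse chromosome 1, from 20890548 to 20939650 in the RefSeq annotation of GRCm38.p6, which is the assembly behind mm10. Its first site was at position 20935501 and its last at 20938543, so that 28 sites fell within 3042 bases, 6.20% of the gene's span of 49103 bases. Igfbp5 is on the minus strand of the same chromosome, from 72858065 to 72874865, with sites from 72858589 to 72862286. These covered 3697 bases, or 22.0% of a span of 16801 bases. Chst2 is a short gene of 6345 bases on the minus strand of chromosome 9, from 95400926 to 95407270, with sites from 95399369 to 95405125. The site at 95399369 lay 1557 bases past the annotated 3′ end, and the other 21 covered 3269 bases within the gene.

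Within their annotated spans the 3 genes therefore had stretches of similar length, 3042, 3697 and 3269 bases, although the genes differ in length. All 73 sites inside the spans were in the last 5 kb. Over the whole list this held for 49.7% of the 16865 sites that lay inside a matched gene. The genes were chosen for this position, and Chst2 is only 6345 bases long, so most of its span lies within 5 kb of the end. In the other 23 genes of at least 20 sites, the share of sites in the last 5 kb ran from 0% to 100%. Its median was 60.5%. The farthest site from the 3′ end was 4149 bases away in Paqr8, 4221 in Igfbp5 and 4199 in Chst2. The remaining 44953 bases of Paqr8, 12579 of Igfbp5 and 2145 of Chst2 towards the 5′ end had 0 sites. On the other side, the last 1107 bases of Paqr8, the last 524 of Igfbp5 and the last 930 of Chst2 were also free of sites. The gene table gives no exons, so whether a site was in coding sequence, an untranslated region or an intron was not determined.

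Other annotated genes were near for Paqr8. The span of Gm51618, a long noncoding RNA gene on the opposite strand (chromosome 1, 20925557 to 20959216), covered all 28 of its sites. The authors assigned these sites to the plus strand and to Paqr8, and the labels name a stranded kit for total RNA. Whether reads of Gm51618 had a part in them was not tested. Another label field names polyA RNA, so which RNA fraction was sequenced is uncertain, and its part in the terminal position of the sites was not tested. The stretches of Igfbp5 and Chst2 overlapped 0 other genes. The nearest annotated gene beyond the outermost site of Chst2 was Gm32018, at 88826 bases, so no other annotated gene was close to the site past the 3′ end. In the whole list 198 of 17114 sites of matched genes (1.16%) lay past a 3′ end.

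**Figure D1:**
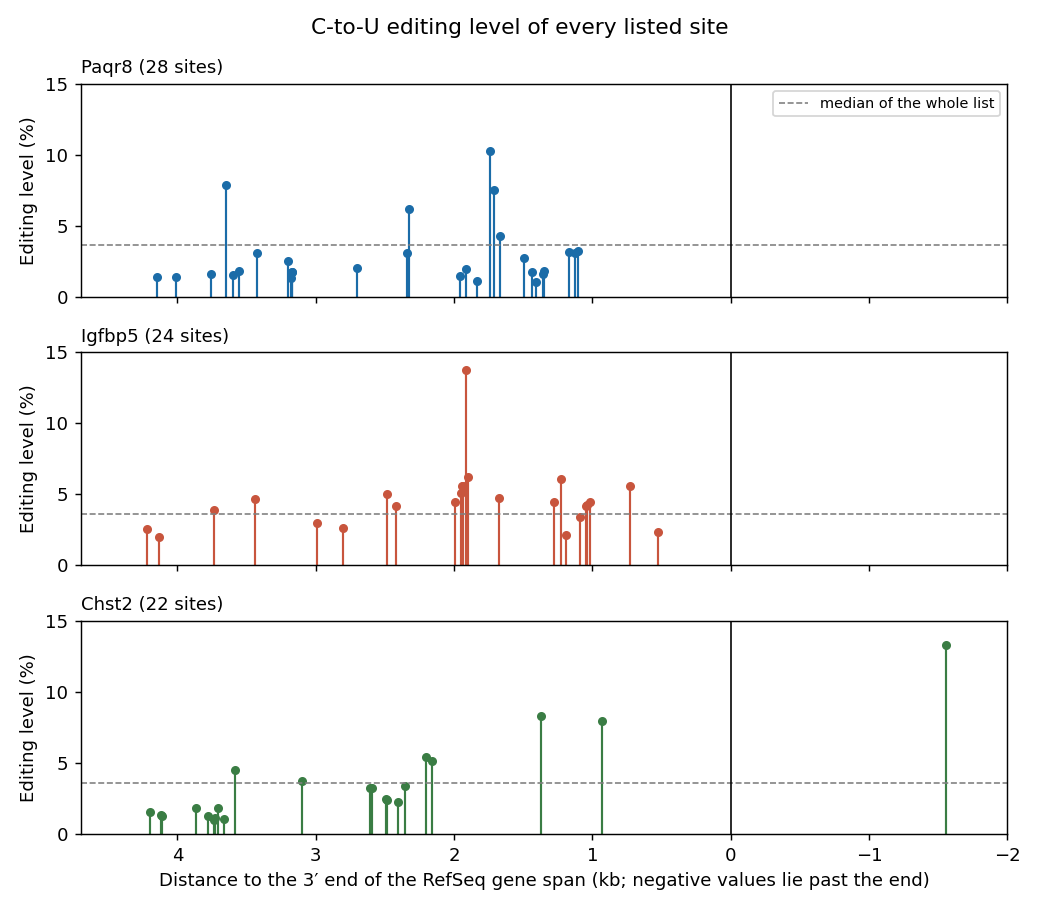
Editing level (%) of every listed site of Paqr8, Igfbp5 and Chst2 against its distance to the 3′ end of the gene (kb, the 3′ end at 0), each stem standing for 1 site and the dashed line for the list median of 3.64%. Low levels with 4 sites of at least 5% are seen in Paqr8, levels above 2% throughout in Igfbp5, and levels that are higher towards and past the 3′ end in Chst2.

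Sites in Paqr8 were edited at low levels with a few higher ones among them. The median level was 1.90% (quartiles 1.57% and 3.09%, mean 2.93% ± 2.29, SD across 28 sites), and 15 sites were below 2%. The 3 highest were 10.3% at position 20937909, 7.84% at 20935998 and 7.5% at 20937941. The 3 lowest were 1.05% at 20938242, 1.12% at 20937819 and 1.29% at 20936468. The highest level was thus 5.41 times the gene's median.

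Read from the 5′ side, the first sites of Paqr8 were at 1.36%, 1.37% and 1.58%, followed by 7.84% at 3652 bases from the 3′ end. The next site, 56 bases on, had 1.55%, and the one after it 1.83%. The second highest site of the gene thus stood between low ones 106 and 56 bases away. At 3169 to 3197 bases from the end lay the tightest group, 4 sites within 28 bases with levels of 2.54%, 1.29%, 1.71% and 1.74%. A gap of 469 bases followed, the longest in the gene, up to a site of 2.02%. A pair at 3.08% and 6.15% then stood 17 bases apart. The last 2 kb held 14 of the 28 sites, and among them the neighbours at 10.3%, 7.5% and 4.26%, which were 32 and 45 bases apart. The last 3 sites, at 1168, 1127 and 1107 bases from the end, had nearly equal levels of 3.12%, 3.08% and 3.23%.

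Igfbp5 had the highest median level of the 3 genes, 4.44% (quartiles 3.29% and 5.24%, mean 4.60% ± 2.31, SD across 24 sites). It had 0 sites below 2%, although the list goes down to 1%, and its lowest site was at 2.02% (72862199). The next lowest were 2.17% at 72859256 and 2.35% at 72858589. The highest were 13.8% at 72859976, 6.25% at 72859961 and 6.06% at 72859292. The first of these was 3.11 times the median and more than double the second, which lay 15 bases from it.

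The densest part of Igfbp5 was between 1 and 2 kb from the 3′ end, with 14 of its 24 sites. There, 3 sites within 24 bases had levels of 4.44%, 4.26% and 4.17%. A second run of 3 sites within 13 bases had 5.56%, 5.56% and 5.13%, beside the pair at 6.25% and 13.8%. Apart from the 13.8% site, neighbours in these groups had similar levels. Farther upstream the sites thinned out. There were 4 at 2 to 3 kb, with levels from 2.63% to 5%, then 2 at 3 to 4 kb with 4.65% and 3.92%, and 2 beyond 4 kb with 2.02% and 2.60%. The longest gap, 450 bases, was in this part, and 5 of the 23 gaps exceeded 300 bases. Nearest to the 3′ end were single sites at 2.35% and 5.56%.

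Chst2 had a median level of 2.46% (quartiles 1.41% and 4.33%, mean 3.55% ± 3.03, SD across 22 sites). Its 3 highest sites were the 3 nearest to or past the 3′ end. The site past the annotated end had 13.3%, the site 930 bases before the end 8%, and the one at 1370 bases 8.33%. The 3 lowest, 1.02% at 95404663, 1.06% at 95404592 and 1.15% at 95404657, lay between 3666 and 3737 bases from the end.

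In Chst2 low and higher levels lay in separate parts of the gene. Of the 22 sites, the 9 farthest from the 3′ end were all below 2%, the highest at 1.88%, while the lowest of the 13 nearer ones was 2.25%; this division was read off after the values were seen. It fell between 2 sites 79 bases apart, with 4.52% at 3587 bases from the end and 1.06% at 3666 bases. By kilobase, the median level was 1.35% at 4 to 5 kb (3 sites), 1.55% at 3 to 4 kb (8 sites) and 3.26% at 2 to 3 kb (8 sites), with single sites nearer the end. The same kilobases of all genes of the list had medians of 4.08%, 4.08% and 4.35%, over 716, 1117 and 1512 sites.

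As a description across sites, which share reads with their neighbours, Spearman's rho of level with distance to the 3′ end was -0.83 in Chst2 (22 sites), -0.28 in Paqr8 (28 sites) and -0.19 in Igfbp5 (24 sites). A negative value means higher levels nearer the end. Without the site past the annotated end, rho in Chst2 was -0.80 over 21 sites. In the other 23 genes of at least 20 sites rho ran from -0.74 to 0.43 with a median of -0.05, so that the value of Chst2 was the lowest of the 26. Levels of 1% to 2% need deep coverage to be listed, and the coverage along these genes is not in the table. Coverage and editing therefore cannot be told apart as the source of the slope in Chst2 or of the higher floor in Igfbp5.

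High levels were rare in all 3 genes. Each had exactly 1 site of at least 10%, together 3 of 74 (4.05%), where 14.9% of all sites in the list reached that level. Of the 74 sites, 45 (60.8%) were below the list median of 3.64%. By gene these were 23 of 28 in Paqr8, 15 of 22 in Chst2 and 7 of 24 in Igfbp5. The median of Igfbp5 was higher than 58.2% of all sites in the list, that of Chst2 higher than 33.4% and that of Paqr8 higher than 22.6%. In the other 23 genes of at least 20 sites, gene medians ran from 1.43% to 4.25% and centred on 1.96%. Medians below the list median were thus common in genes with this many sites. The share of sites of at least 10% in those genes was not computed.

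The sites of all 3 genes stood close together. The median gap between neighbours was 56 bases in Paqr8 (quartiles 30 and 157), 87 in Igfbp5 (30 and 295) and 79 in Chst2 (37 and 243). The shortest gap was 4 bases in Paqr8, between 20936477 and 20936481, and 4 bases in Igfbp5, between 72859105 and 72859109. In Chst2 it was 6 bases, between 95404657 and 95404663, while the longest was 2487 bases, between the site past the annotated end and the next one. Another site of the same gene lay within 100 bases for 23 of 28 sites in Paqr8 (82.1%), 17 of 24 in Igfbp5 (70.8%) and 18 of 22 in Chst2 (81.8%). Over the whole list, in which most genes have few sites, that share was 22.8%. In the other 23 genes of at least 20 sites it ran from 15.4% to 95.7% with a median of 63.6%, so that the 3 genes lay within the range of genes with as many sites.

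**Figure D2:**
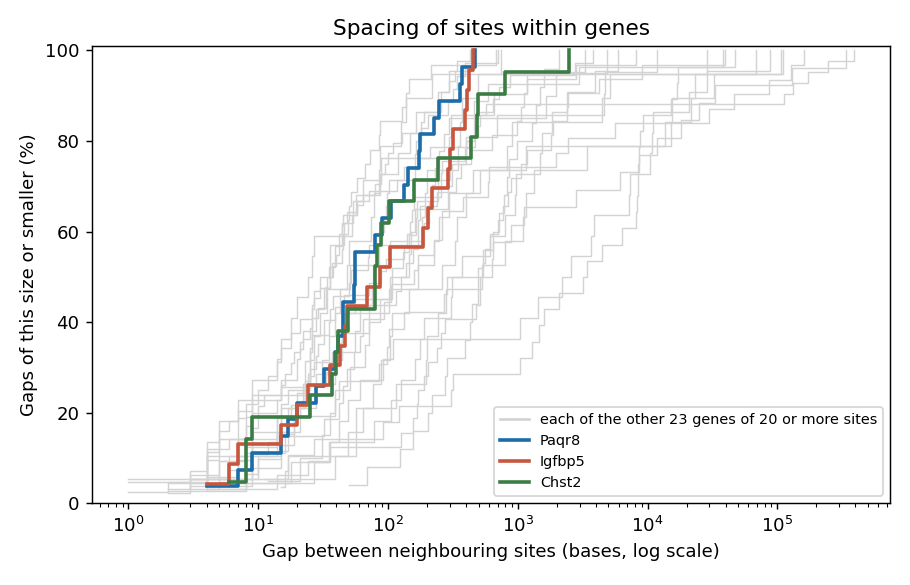
Share of gaps (%) between neighbouring sites of a gene that are of a given size or smaller, against gap size in bases on a log scale, as a coloured line for each of Paqr8, Igfbp5 and Chst2 and a grey line for each of the other 23 genes of at least 20 sites. The median gaps of 56, 87 and 79 bases lie between the lowest, 25, and the highest, 3302.5, of the other genes.

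Groups of sites joined by gaps of at most 20 bases were short. Paqr8 had 4 such groups, one of 4 sites and the rest pairs. Igfbp5 had 3, of which 2 held 3 sites, and Chst2 had 4 pairs, each 6 to 9 bases wide. Near neighbours had close levels in some groups and not in others. Among neighbours at most 20 bases apart, Igfbp5 had 6.25% beside 13.8% at 15 bases, and Paqr8 had 3.08% beside 6.15% at 17 bases and 2.54% beside 1.29% at 15 bases. In Chst2 the pairs were at 2.41% and 2.50%, 3.23% and 3.28%, 1.15% and 1.02%, and 1.31% and 1.35%. The median difference in level between neighbours at most 20 bases apart was 0.295 percentage points in Paqr8 (6 pairs), 0.18 in Igfbp5 (5) and 0.07 in Chst2 (4). Between neighbours farther apart it was 0.94, 1.17 and 0.73 points. Over all genes of the list the medians were 0.66 points for 845 close pairs and 1.51 points for the other neighbours. In the other 23 genes of at least 20 sites they were 0.73 points for 123 close pairs and 0.96 points. The differences were not scaled to the level, which was low in the pairs of Chst2. Reads that cover 1 site of a close pair mostly cover the other as well, so the values of a pair are not independent.

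Among the 26 genes of at least 20 sites, Paqr8 had the third shortest distance from first to last site, Igfbp5 the sixth and Chst2 the eighth. Per kilobase of that distance Paqr8 had 9.20 sites, Igfbp5 6.49 and Chst2 3.82, or 6.42 when only its 21 sites within the gene are used. The other 23 genes ranged from 0.041 to 15.3 sites per kilobase with a median of 0.928. At most 14 sites fell within any 1 kb of Paqr8 and of Igfbp5, and 10 in Chst2. In the whole list 11 genes reached 14 and 40 genes reached 10. Besides Paqr8 and Igfbp5, the genes of this size with every site in the last 5 kb were Aqp4, Kcnj10, Gja1, Slc1a3 and Dag1.

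Ordered by median level from the highest, Igfbp5 had rank 1 of the 26, Chst2 rank 10 and Paqr8 rank 16. The other 23 medians ran from 1.43% to 4.25%. Igfbp5 was followed by Dag1 at 4.25% and Astn1 at 4.08%, both within the quartiles of Igfbp5, so that this order cannot be separated from the spread across sites. Of the 26 genes only Igfbp5 and Astn1 had a lowest listed level above 2%, at 2.02% and 2.13%.

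**Figure D3:**
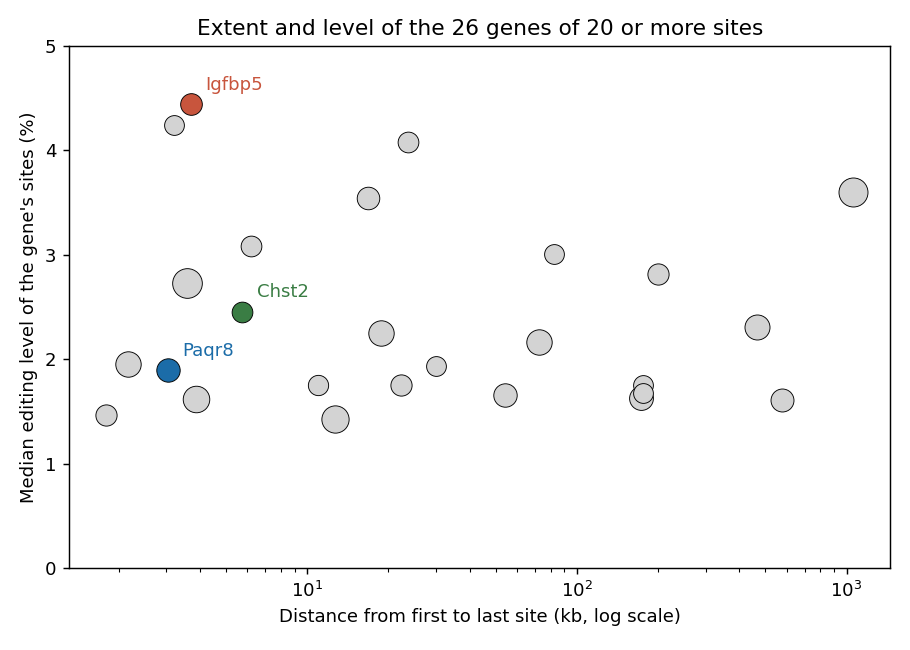
Median editing level of a gene's sites (%) against the distance from its first to its last site (kb, log scale) for the 26 genes of at least 20 sites, with the area of a point proportional to the number of sites. Paqr8, Igfbp5 and Chst2 (coloured) lie among the 8 genes with the shortest distances, with Igfbp5 at the top at 4.44%.

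The genes most like each of the 3 were found among 54 other genes of at least 15 sites, from the number of sites, the distance from first to last site, the median level and the median distance to the 3′ end. Each was taken on a log10 scale and divided by its SD, and the straight-line distance over these 4 measures was used. Nearest to Paqr8 were Kcnj10 (distance 0.93), a potassium channel gene known from astrocytes, Slc1a3 (0.97) and Gja1 (1.06), which are both on the astrocyte marker list. The median distance of the 54 genes from Paqr8 was 2.82. Nearest to Igfbp5 were Dag1 (0.64), the dystroglycan gene, Fam171b (0.87) and the neuronal adhesion gene Astn1 (1.11). Nearest to Chst2 were Rgs5 (0.70), a regulator of G protein signalling and a mural marker, Sema6d (0.87), a semaphorin gene, and Fam171b (1.22). Chst2 and Paqr8 were 1.08 apart, Chst2 and Igfbp5 1.43, and Paqr8 and Igfbp5 2.02, so that Paqr8 and Igfbp5 each had nearer neighbours than each other.

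In the families of the 3 genes the share of members with a site was 54.5% for PAQR genes, 37.5% for IGF binding protein genes and 26.7% for carbohydrate sulfotransferase genes, beside 28.3% of all protein-coding genes. Families of this size allow no reading of these shares, which count the 3 selected genes themselves. Of 11 PAQR genes 6 had a site, with 28 sites in Paqr8 and 17 in the others. Mmd2 had 10 sites with a median of 2.48%, the highest at 8.97% and 97 bases from the 3′ end. Paqr4 had 4 sites, at 6.90%, 1.77%, 4.35% and 4.26%, all within 1335 bases of the end. Paqr7, which like Paqr8 encodes a membrane progesterone receptor, had 1 site at 3.92%, Paqr6 had 1 at 1.21%, and the adiponectin receptor gene Adipor2 had 1 at 1.16%. Paqr3, Paqr5, Paqr9, Adipor1 and Mmd had 0. Of 5 genes for the nuclear progesterone receptor and related membrane proteins, Pgrmc1 had 4 sites (median 3.72%) and Pgrmc2 1 (1.54%), while Pgr, the nuclear receptor itself, Nenf and Cyb5d2 had 0.

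Of 8 IGF binding protein genes 3 had a site. Igfbp2, the next annotated gene beyond the 3′ end of Igfbp5 and on the opposite strand, had 1 site at 2.30%. Igfbp7 had 5, of which 4 lay within 194 bases of the 3′ end at 1.94%, 1.94%, 1.82% and 1.71%, and 1 lay 58608 bases away at 4.17%. The close group in Igfbp7 was thus below the lowest site of Igfbp5. Igfbp1, Igfbp3, Igfbp4, Igfbp6 and Igfbpl1 had 0. Of 16 genes for ligands, receptors, their substrates and proteases of this pathway 5 had a site. Among them the ligand gene Igf2 had 1 at 5.41%, the receptor genes Igf1r and Insr had 7 (median 2.53%) and 6 (median 5.40%), and the adaptor genes Irs1 and Irs2 had 3 (median 9.09%) and 4 (median 9.79%). The ligand genes Igf1, Ins1 and Ins2, the receptor gene Igf2r and the protease genes Pappa and Pappa2 had 0.

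Of 15 carbohydrate sulfotransferase genes 4 had a site, and 22 of their 30 sites were in Chst2. Chst10, which sulfates the HNK-1 epitope of neural glycoproteins, had 4 sites from 1.36% to 4.55%. Chst1, which acts on galactose of keratan sulfate, had 2 at 2.73% and 2.38%, and Chst11, a chondroitin sulfotransferase, had 2 at 6.90% and 14.3%. The other 11 had 0, among them the chondroitin sulfotransferase genes Chst3, Chst12, Chst13 and Chst15. Of 9 genes for the supply of PAPS, the sulfate donor, and for keratan sulfate chains, the transporter gene Slc35b3, the nucleotidase gene Bpnt1 and the galactosyltransferase gene B4galt4 had 1 site each, at 5.26%, 4.26% and 2.90%.

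**Figure D4:**
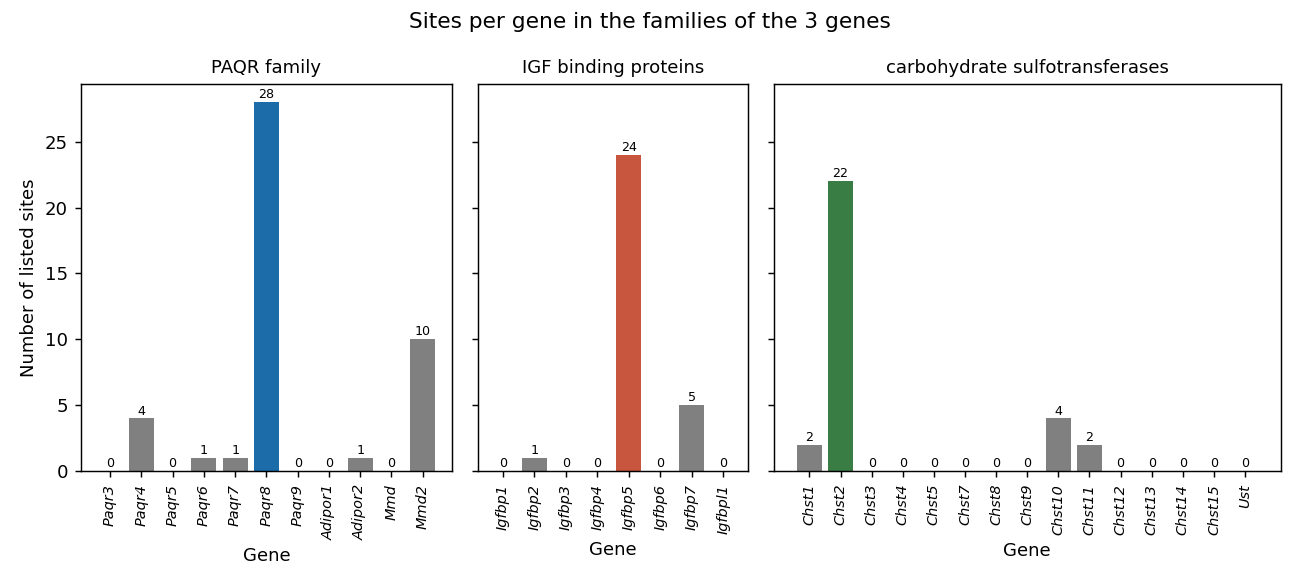
Number of listed sites per gene (bars) for the 11 PAQR genes, 8 IGF binding protein genes and 15 carbohydrate sulfotransferase genes, with Paqr8, Igfbp5 and Chst2 coloured. Next to the 28, 24 and 22 sites of these 3, the highest counts in each family were 10 in Mmd2, 5 in Igfbp7 and 4 in Chst10.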

How the data were processed

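The single deposited table gives the position, strand, gene name and editing fraction of each C-to-U site for both libraries together; fractions are printed here as percentages. Per the series description, the authors called sites with Bullseye, and the submitters' processing notes name STAR 2.7.5 and the build mm10. Bullseye settings, the control, the coverage minimum and how the libraries were joined are not stated there. Depth is unknown, and the list stops at 1%, so weakly edited sites are missing where coverage was low.

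Gene names were matched to a RefSeq table of GRCm38.p6 (6456 of 6929 names, 93.2%). The strand of RefSeq promoter entries equalled the site strand at all 13618 sites where both were known. A strand taken over from the gene would give the same agreement, so the strand of the reads was not checked by it. Positions are 1-based, and distances to the 3′ end use gene spans. The planned sequence context was not run, and exons were not analysed here. Python 3.11.15, pandas 2.3.3 and scipy 1.17.1 were used, and the spacing functions were tested on placed sites. The members and lists were chosen with earlier results of these data known. Genes named are the members, family genes, other genes of at least 20 sites and the 3 genes most like each member; genes at 19 sites, and sites beyond the highest, lowest, outermost and closest of each member, were named after their values were seen. Alternatives were other minimum levels, merged sites, shorter windows and means.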

Additional observations from a re-analysis of the deposited data

How the results depend on the processing

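Of 52 recomputed values 30 stayed within a set range of the main value, 22 moved further and 0 reversed. The range was 1.5 times the main count, the exact 95% binomial interval of the main share, the SD across sites or gaps, or, for rho, 0.1. That interval treats the sites of a gene as independent, and the SD is a spread across sites and not an error. Counts, gaps, shares and levels cannot change sign, so the 0 reversed says little about them. At a minimum level of 2% Paqr8 kept 13 sites and Chst2 13, with Igfbp5 at 24. At 5% Paqr8 had 4, Chst2 5 and Igfbp5 8. The median level at 2% was 3.12% in Paqr8 and 3.77% in Chst2, against 1.90% and 2.46% over all sites. The mean over all sites of Paqr8 was 2.93%. These levels were within the SD across sites but over 1.5 times the main medians. The median gap in Paqr8 was 199.5 bases at 2% and 585 at 5%, and its share of sites with another within 100 bases was 61.5% and 50%; in Chst2 that share was 40% at 5%. The median gap in Chst2 went from 79 to 130 and 616 bases and that in Igfbp5 from 87 to 87 and 24. These values were within the SD of the gaps of each gene. In Chst2 both were nevertheless over 1.5 times the main value, while the gap in Igfbp5 at 5% fell by more than a factor of 1.5. With 20 bases for 100, the shares were 35.7% in Paqr8, 33.3% in Igfbp5 and 36.4% in Chst2. The last 2 kb held 50%, 66.7% and 9.09% of the sites of Paqr8, Igfbp5 and Chst2, and the last 1 kb 0%, 8.33% and 4.55%. At 2%, rho of level with distance was -0.061 in Paqr8 and -0.61 in Chst2, and 1 gene in place of 2 of the progesterone receptor list had a site. These alternatives use fewer sites or shorter windows by construction. The value of Chst2 without the site past its end was added after the data were seen. No paired analysis was possible because there is 1 group and its libraries have no values of their own, and for the same reason neither library could be left out. Unknown coverage limits every level.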
